A study of Mus musculus with 10 samples.

Results

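The fatty acid binding proteins described here are the products of Fabp1, Fabp2, Fabp3, Fabp4, Fabp5 and Fabp7. The members were chosen with earlier results of these data known. Their probes were every non-control probe whose gene name in the scanner files was among these 6 symbols, a rule that used no measured value. This gave 9 probes of 41174 on the array, and 6 genes of 27670 gene symbols. Total RNA from livers of C57BL/6 mice aged 1 year was labelled with the dye Cy3 and hybridised to Agilent mouse genome arrays, 1 sample per array. The labels name 5 wild-type samples, called WT1 to WT5 here, and 5 knockout samples lacking the orphan nuclear receptor TAK1, also known as TR4 and encoded by Nr2c2, called KO1 to KO5. Sex, the deleted part of the gene and the feeding of the mice are not given in the sources used here. The comparison asks how liver expression differs when the receptor is missing, in a study of obesity-linked inflammation and fatty liver. The labels do not say that each array came from a separate mouse, so the p-values measure only the spread between these samples. In whole liver, fewer cells of a type and less RNA per cell cannot be told apart.

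Fatty acid binding proteins are small cytosolic proteins that fold into a barrel around a long-chain fatty acid and carry it between membranes, enzymes and the nucleus. Fabp1 is the abundant form of the hepatocyte, where it supplies ligands to the nuclear receptor PPARA and is itself a PPARA target. Fabp2 is best known from the enterocyte, Fabp3 from heart and skeletal muscle, Fabp4 from adipocytes and macrophages, Fabp5 from the epidermis and Fabp7 from the glia of the developing brain. TR4 binds direct repeats of the nuclear receptor half-site, a class of element that PPAR receptors also use.

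The array carries 1 probe each for Fabp1, Fabp3, Fabp5 and Fabp7, a pair for Fabp2 and 3 for Fabp4. Each probe is a 60-base oligonucleotide, and the files place it on the mouse build mm7. The probes of the 2 genes with more than 1 probe are shown because the agreement between them is a check of the readings below, in lower case throughout, 5′ to 3′, in full for 3 of them and as the first 30 bases for the others. No genome of this build was used, so exon and untranslated region were not assigned.
Fabp2 A_51_P313581, chr3:122738629-122738688, plus strand, first 30 bases: aggctcattcgtcatcctatcagcactggt
Fabp2 A_52_P453013, chr3:122736043-122736102, plus strand: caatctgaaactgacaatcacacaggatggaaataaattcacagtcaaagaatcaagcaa
Fabp4 A_51_P336833, chr3:10212636-10212696, minus strand, first 30 bases: aagaggcctggatggaaatttgcatcaaac
Fabp4 A_51_P336830, chr3:10212718-10213447, minus strand: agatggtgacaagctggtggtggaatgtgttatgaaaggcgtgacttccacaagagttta
Fabp4 A_52_P564544, chr3:10216627-10216686, minus strand: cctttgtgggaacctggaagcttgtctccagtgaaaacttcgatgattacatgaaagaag
The Fabp2 probes lie apart on chromosome 3, so they read separate stretches of the gene. The Fabp4 probe A_51_P336830 covers 730 bases of genome with 60 bases of sequence, so its alignment is interrupted. The single probes lie at chr6:71222913-71222972 for Fabp1, chr4:129760011-129760070 for Fabp3, chr3:10022040-10022099 for Fabp5 and chr10:57609720-57609779 for Fabp7, all on the plus strand.

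Signals are given as the log2 of the processed intensity minus the array's own 75th percentile, so 0 is that percentile itself. A difference is knockout minus wild type on this log2 scale with the standard error of the fit. Adjusted p is that of limma with Benjamini-Hochberg adjustment over the 23266 probes that passed a filter on dim signal (flagged as clearly brighter than background on 4 or 5 arrays of either genotype), and a probe with an adjusted p under 0.05 is said to have changed. Levels of different probes are not read as relative amounts of RNA, because probes differ in how brightly they hybridise. Sums of marker signals, and the share of 1 gene in a sum, carry the same limit. The 75th percentile lay between 950.3 and 1344 intensity units, and the share of probes above background ran from 51.0% to 62.4%. Slide 1 held WT1 to WT4, slide 2 held WT5 and KO1 to KO3, KO5 was on slide 3 and KO4 on slide 4, so that slide 2 is the only one with both genotypes. KO4 was also the single array scanned on a later day. The knockout arrays varied more, with a median SD of 0.23 over all tested probes against 0.14 in wild type. The targeted gene did not settle the genotype labels. Of the probes named Nr2c2, one was higher in the knockout, at 0.44 ± 0.11 (adjusted p = 0.043), and the other differed by 0.36 ± 0.13 (adjusted p = 0.144). Whether they lie in the deleted part was not determined. A cDNA probe that the files describe as the same receptor (chr6:92237812-92237871) rose above background on all 5 WT arrays but on 0 KO arrays, and its signal dropped by a factor of at least 5.41 (adjusted p = 0.00021). The files list its coordinates on the minus strand and those of the named probes on the plus strand, so it may not read the same transcript. Knockout therefore means the arrays labelled as knockout throughout.

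Fabp2 was the only member with a probe that changed. Of the 8 member probes that could be tested, 1 changed, a Fabp2 probe that was lower in the knockout. A negative difference was found for 7 of the 8, counting Fabp1, whose sign turned under other scalings. The 7 include the Fabp2 pair and the 3 Fabp4 probes, so they do not count separate genes. Over all 15809 genes, taken by 1 probe each, 7600 had a negative difference. The background share of changed probes over the whole array was 5.05%, with 2.98% lower and 2.06% higher, and a count of 1 among 8 probes is not a result about the family. Without adjustment, 3 of the 8 had a limma p under 0.05, the Fabp2 pair and Fabp7. Over the whole array, 5339 of 23266 probes did. The other Fabp2 probe moved by the same amount and missed the threshold. Fabp1, Fabp3, Fabp4 and Fabp7 did not pass the test, and Fabp5 was too dim to be tested.

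Fabp2 encodes the intestinal-type carrier, which binds a single long-chain fatty acid and both of its probes were above background on all 10 arrays. On probe A_51_P313581 the wild-type arrays read 5.71, 5.85, 5.82, 5.89 and 5.91, and the knockout arrays 5.33, 3.94, 5.20, 5.13 and 4.67, in the order of their numbers. Every knockout array was below every wild-type array, with a gap of 0.38 between the groups. The means were 5.84 ± 0.08 (SD, n = 5) and 4.86 ± 0.57 (SD, n = 5). The difference was -0.98 ± 0.23, with a 95% interval from -1.50 to -0.46 and an adjusted p of 0.041 by limma. In linear terms the signal was 1.97-fold lower.

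The second Fabp2 probe, A_52_P453013, read 2.77, 2.88, 2.86, 2.97 and 2.87 on the wild-type arrays and 2.59, 0.92, 2.31, 1.92 and 1.67 on the knockout arrays. Again no knockout array reached the wild-type range, and the gap was 0.18. The wild-type arrays lay close together and the knockout arrays were spread out, with KO2 the lowest. Its difference was -0.99 ± 0.26 (95% interval -1.57 to -0.41), with an adjusted p of 0.0587 by limma. These were the 2 member probes whose groups did not overlap. Over the whole array the groups did not overlap for 5.09% of probes in the lower direction and 3.86% in the higher.

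**Figure D1:**
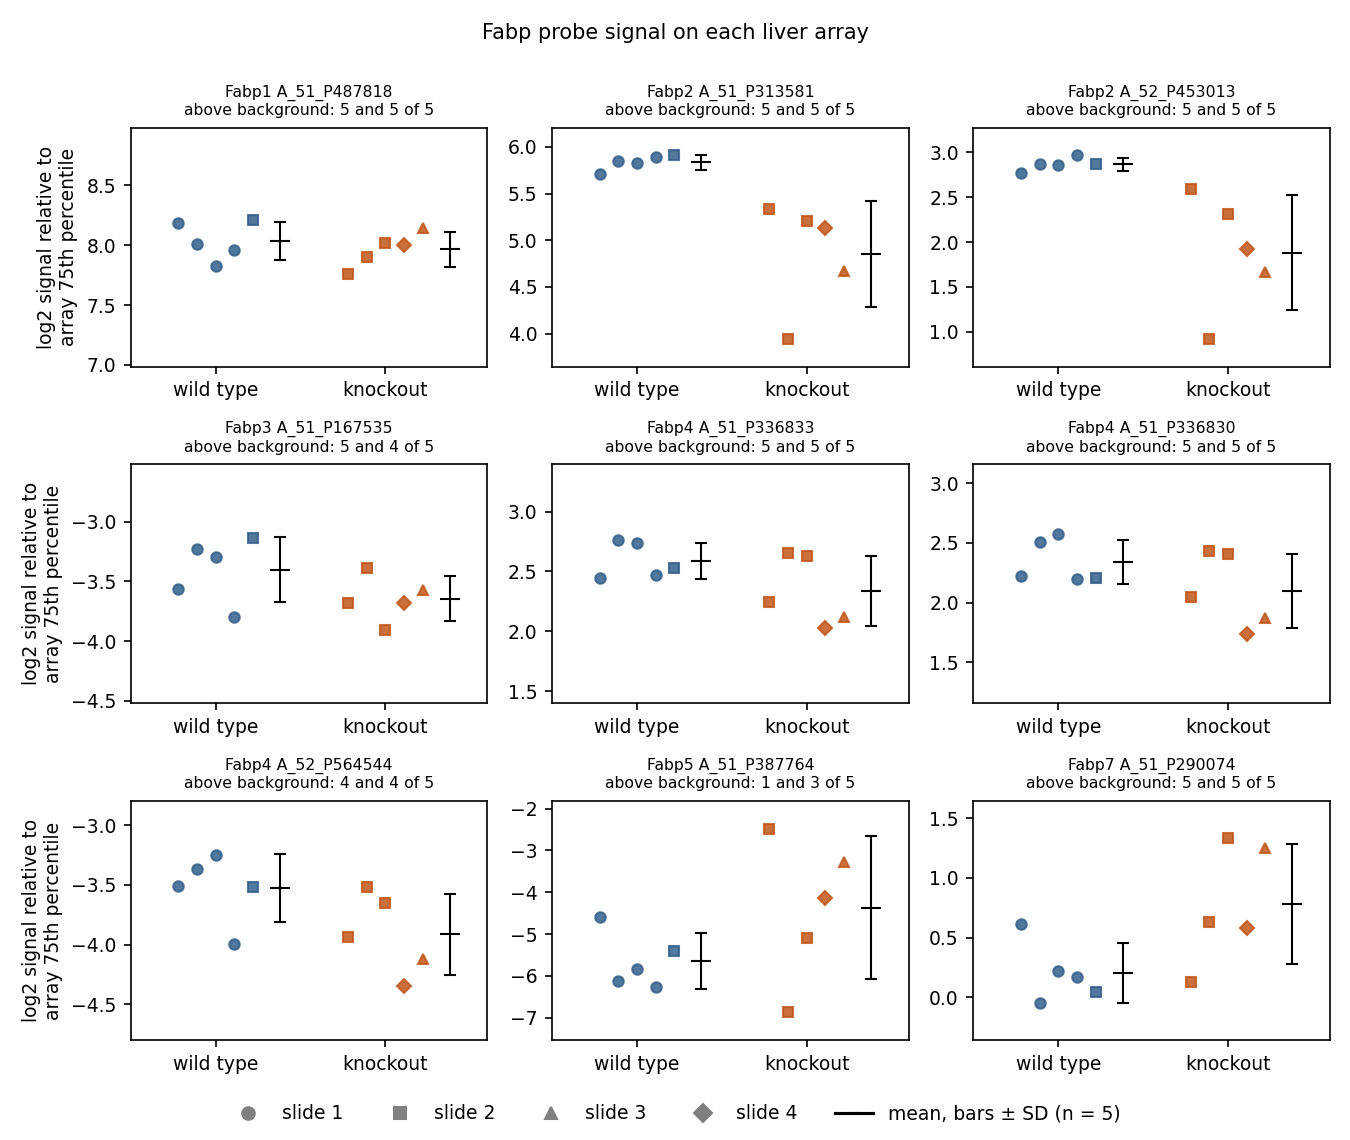
Log2 signal relative to the array's 75th percentile for each of the 9 Fabp probes, with arrays of each genotype side by side, marker shape for the slide and black bars for mean ± SD (n = 5). Each panel spans its own range of at least 2 log2 units. Both Fabp2 panels show all 5 knockout arrays below the wild-type arrays, and all other panels show overlap.

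The pair of Fabp2 probes followed each other from array to array. Their Pearson correlation was 0.985 over the 10 arrays and 0.964 for deviations from the group mean. It was 0.905 for deviations when KO2, the most distant array, was left out. The points share arrays and scaling, and the value is a description. The differences estimated from the probes differed by 0.005 on the log2 scale.

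**Figure D2:**
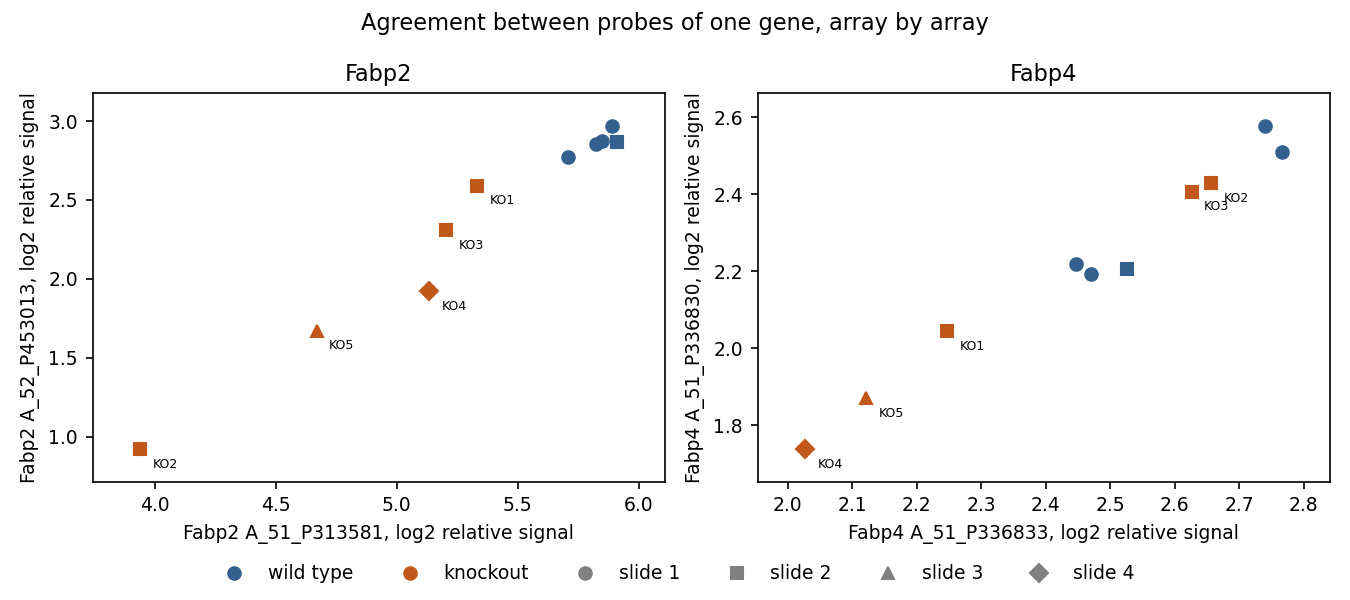
Log2 relative signal of one probe against another probe of the same gene on each of the 10 arrays, Fabp2 on the left and Fabp4 on the right, coloured by genotype and shaped by slide, with knockout arrays named. In Fabp2 the knockout arrays trail below a tight wild-type cluster down to KO2. In Fabp4 all arrays follow one line, with KO2 and KO3 among the wild-type arrays and KO1, KO4 and KO5 below them, KO4 lowest.

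KO2 had the lowest Fabp2 reading on both probes. It was 1.14 and 1.20 below the mean of the other knockout arrays on A_51_P313581 and A_52_P453013. The other 4 knockout arrays differed from wild type by -0.75 on each probe. Without KO2 both probes changed, with adjusted p of 0.012 and 0.035 by limma. KO2 was also the lowest of the 10 arrays for 7 of 14 hepatocyte markers and for 9 of 14 genes of fatty acid uptake and activation. Its summed hepatocyte marker signal was 1524 times the 75th percentile, against 1874 to 2103 on the other knockout arrays, and the part of this in the Fabp2 value was not tested.

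The Fabp2 call did not survive every choice of arrays or model. Leaving out 1 array at a time, A_51_P313581 stayed past the threshold without KO1 (adjusted p = 0.029), KO2 (0.012) or KO3 (0.047) in limma. The call was lost without WT1 (0.075), WT2 (0.095), WT3 (0.079), WT4 (0.089), WT5 (0.084), KO4 (0.057) or KO5 (0.087). Within slide 2, with 1 wild-type and 3 knockout arrays, the differences were -1.09 and -0.93 on the pair of probes, against -0.98 and -0.99 over all slides. With slide as a fixed block the first probe had an adjusted p of 0.543. The sign was negative under all 22 alternatives, with values from -1.10 to -0.75, and the threshold was passed under 10 of them. Because every knockout array was below every wild-type array, leaving out 1 array could not turn the sign. The filter, outlier and replicate-block settings returned the same -0.98, so the shared sign is a description and not a check.

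**Figure D3:**
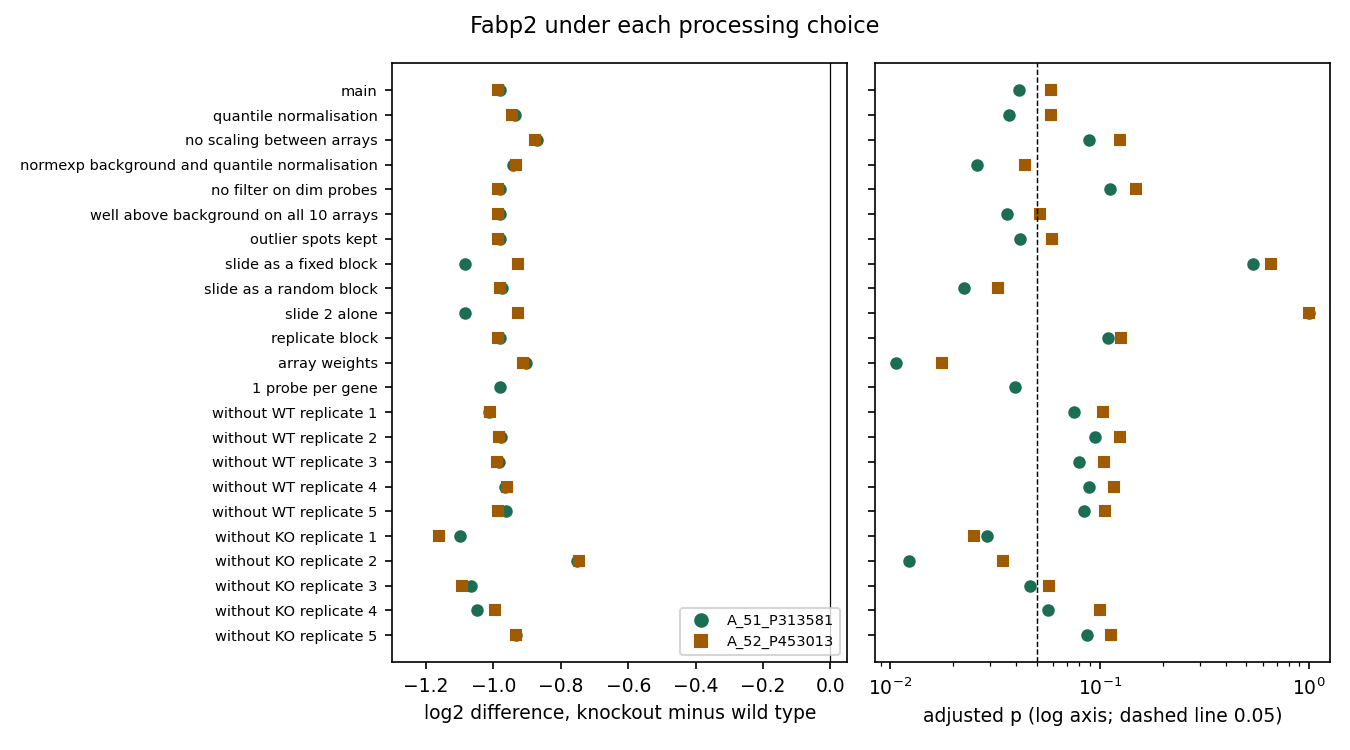
Left, log2 difference (knockout minus wild type) of both Fabp2 probes under the reported analysis and each alternative. Right, the adjusted p on a log axis with a dashed line at 0.05. All differences are below 0, between -1.16 and -0.75, while the adjusted p values fall on both sides of the line.

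Fabp1, the liver form, read 8.18, 8.01, 7.83, 7.96 and 8.21 on the wild-type arrays and 7.76, 7.90, 8.02, 8.00 and 8.14 on the knockout arrays. The ranges overlapped almost completely. Means were 8.04 ± 0.16 (SD, n = 5) in wild type and 7.97 ± 0.14 (SD, n = 5) in knockout. The difference was -0.07 ± 0.10 (adjusted p = 0.704), and its 95% interval ran from -0.29 to 0.15. In percent this is a change of -4.94%, with an interval from -18.5% to 10.9%. Within slide 2 the difference was -0.32, and the wild-type array there, WT5, was the highest of its group. The sign turned, to 0.03 with quantile normalisation, 0.03 with normexp correction and 0.04 without scaling between arrays, so no direction is given for Fabp1.

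The promoters of Fabp1 and Fabp2 are shown to set the member with a changed probe beside the known PPARA target that did not pass the test. RefSeq sequence (GRCm38.p6) was read for the 250 bases before the annotated start of 4 of the 6 members, and Fabp4 and Fabp5 were not in the table used. Both strands were searched for the closest match to AGGTCANAGGTCA, the direct repeat with 1 base between half-sites, and capitals mark that match.
Fabp1, chr6:71199629-71199878, plus strand: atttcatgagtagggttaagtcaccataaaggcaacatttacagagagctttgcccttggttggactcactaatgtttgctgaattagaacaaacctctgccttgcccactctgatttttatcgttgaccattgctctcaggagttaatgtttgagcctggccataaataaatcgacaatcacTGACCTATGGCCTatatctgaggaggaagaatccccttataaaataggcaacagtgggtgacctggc
Fabp2, chr3:122894822-122895071, plus strand: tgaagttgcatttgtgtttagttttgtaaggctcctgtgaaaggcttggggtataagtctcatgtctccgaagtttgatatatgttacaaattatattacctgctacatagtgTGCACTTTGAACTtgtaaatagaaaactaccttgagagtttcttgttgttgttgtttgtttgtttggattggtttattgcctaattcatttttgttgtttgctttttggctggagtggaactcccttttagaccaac
The Fabp1 match lay on the minus strand, 67 to 55 bases before the start, with 1 mismatch to the motif. Of 32851 such windows in the table, 0.484% held a match with at most 1 mismatch. The closest match before Fabp2 had 3 mismatches, 137 to 125 bases before the start, and 21.3% of windows held one as good. Fabp7 also had 3 mismatches at best and Fabp3 had 4, a match that 74.5% of windows held. A match of letters is a description of the window and was not tested for binding.

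Fabp3, the heart and muscle carrier, was near the detection limit in liver. Its wild-type arrays read -3.56, -3.23, -3.29, -3.80 and -3.14, and its knockout arrays -3.68, -3.38, -3.90, -3.68 and -3.57. It was above background on all arrays but KO3, and the groups overlapped. The difference was -0.24 ± 0.14, with a 95% interval from -0.55 to 0.07 and an adjusted p of 0.335, and within slide 2 it was -0.52. Of 11 striated muscle markers, 6 were never above background (Ckm, Mb, Acta1, Myh6, Tnnt3 and Actn3) and 3 could be tested. None of the 3 changed in limma, and 2 had an unadjusted p under 0.05, as did 5339 of all 23266 probes. The muscle marker with the smallest p was the cardiac actin gene Actc1, at 0.44 ± 0.16 (adjusted p = 0.142). The summed signal of all 11 markers was 0.492 to 0.641 times the 75th percentile in wild type and 0.582 to 0.886 in knockout.

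Fabp4, the carrier of adipocytes and macrophages and a classic PPARG target, was measured by 3 probes. On A_51_P336833 the wild-type arrays read 2.45, 2.77, 2.74, 2.47 and 2.53, and the knockout arrays 2.25, 2.66, 2.63, 2.03 and 2.12. KO2 and KO3 sat within the wild-type range, and KO1, KO4 and KO5 below it. The difference was -0.25 ± 0.14 (95% interval -0.56 to 0.06, adjusted p = 0.307), a change of -16.2% with an interval from -32.4% to 3.93%.

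Its neighbour A_51_P336830 read 2.22, 2.51, 2.58, 2.19 and 2.21 in wild type and 2.04, 2.43, 2.41, 1.74 and 1.87 in knockout. The order of arrays was nearly that of the first Fabp4 probe, and their deviations from the group means had a Pearson correlation of 0.986 over 10 arrays, a description of shared arrays and scaling. The difference was -0.24 ± 0.15 (adjusted p = 0.373). The dimmest probe, A_52_P564544, read -3.51, -3.36, -3.25, -3.99 and -3.52 in wild type and -3.94, -3.52, -3.65, -4.34 and -4.12 in knockout. It was above background on 4 arrays of each group, all but WT4 and KO3, and its difference was -0.39 ± 0.18 (95% interval -0.79 to 0.02, adjusted p = 0.237). Thus all 3 probes gave a negative difference and none passed the test. Within slide 2 they gave -0.02, 0.09 and -0.18, so the sign of A_51_P336830 turned there.

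Fabp5, the epidermal carrier, was above background only on WT1, KO1, KO4 and KO5. It was left out of the test by the filter on dim probes. The wild-type arrays read -4.59, -6.11, -5.84, -6.27 and -5.40, and the knockout arrays -2.48, -6.87, -5.09, -4.13 and -3.28. The groups overlapped, and KO2 had the lowest reading of all. When every probe was tested without the filter, its difference was 1.28 with an adjusted p of 0.552.

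Fabp7, the brain carrier, was the single tested member with a positive difference. Its wild-type arrays read 0.61, -0.04, 0.22, 0.17 and 0.05, and its knockout arrays 0.13, 0.63, 1.33, 0.58 and 1.25. KO3 and KO5 were well above all wild-type arrays and KO2 just above, whereas KO1 and KO4 lay within their range. Means were 0.20 ± 0.25 (SD, n = 5) and 0.78 ± 0.50 (SD, n = 5). The difference was 0.58 ± 0.23, with a 95% interval from 0.08 to 1.09, an unadjusted p of 0.0278 and an adjusted p of 0.167 by limma. It passed the adjusted threshold under 0 of 22 alternatives, with the nearest at 0.054 when KO1 was left out, and within slide 2 it was 0.65.

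**Figure D4:**
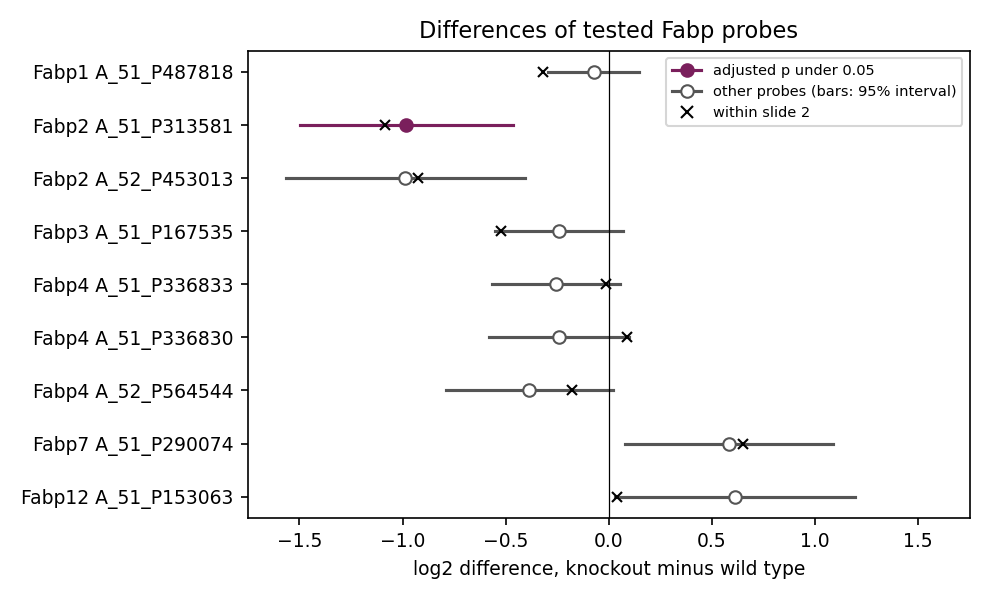
Log2 difference (knockout minus wild type) with its 95% interval for the 8 tested Fabp probes and for the tested probe of their relative Fabp12, with crosses for the difference within slide 2. The Fabp2 pair lies near -1, the Fabp1, Fabp3 and Fabp4 intervals reach across 0, and Fabp7 and Fabp12 lie above 0 without passing the adjusted threshold.

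Relatives of the same protein family, which bind retinoids, bile acids or fatty acids, were mostly below background. Of 10 listed relatives, 9 were on the array with 14 probes, and 9 of these probes were above background on no array. Fabp6, the ileal bile acid carrier, and Pmp2, Crabp1, Crabp2 and Rbp7 were never above background. The Fabp12 probe A_52_P419646 was above background on no array and was not tested. The Fabp12 probe A_51_P153063 was dim, above background on 4 arrays of each group. It differed by 0.61 ± 0.26 (adjusted p = 0.198 by limma), with 0.04 within slide 2. Fabp9 and Rbp2 were above background on 1 and 2 knockout arrays at most and were not tested. In the RefSeq annotation Fabp5, Pmp2, Fabp9, Fabp4 and Fabp12 follow each other as 5 neighbouring protein-coding genes on chromosome 3. Of these, the Fabp4 probes and the dim Fabp12 probe A_51_P153063 could be tested, with differences of opposite sign over all arrays.

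The differences of member genes were also set against each other within each array, which removes the scaling between arrays, a comparison added after the values were seen. Of 10 pairs of the 5 genes with a tested probe, 7 had an unadjusted exact two-sided permutation p under 0.05 and 0 passed after Benjamini-Hochberg adjustment over the 10. All 7 involved Fabp2 or Fabp7. The ratio of Fabp2 to Fabp7 differed most, by -1.56 (exact p = 0.016, adjusted p = 0.0595), and by -1.37 without KO2. Fabp2 against Fabp1 is given as Fabp1 minus Fabp2, which was higher in the knockout by 0.91 (exact p = 0.016, adjusted p = 0.0595) and by 0.69 without KO2. Fabp3 minus Fabp4 differed by 0.01 (exact p = 0.913). The smallest p that 5 against 5 arrays allow is 0.0079, and the groups overlapped for all 10 pairs. A separate fall of Fabp2 relative to the other members is therefore not shown by this test.

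Genes of fatty acid handling give the surroundings of these carriers. The lists overlap and were chosen with earlier results of these data known, and no set test was made. Of 13 tested acyl-CoA and sterol carriers, 0 changed in limma, 6 had an unadjusted p under 0.05 and the median difference was -0.13. The one nearest the threshold was the acyl-CoA binding protein gene Dbi, at -0.25 ± 0.06 (adjusted p = 0.052). Of 14 genes of fatty acid uptake and activation, 2 fell, the membrane fatty acid translocase Cd36 by -2.20 ± 0.37 (adjusted p = 0.012) and the transport protein gene Slc27a4 by -0.48 ± 0.11 (adjusted p = 0.038). Over all 15809 genes, taken by 1 probe each, 3.26% fell, 2.23% rose and the median difference was 0.01. Without adjustment, 5339 of the 23266 tested probes had a limma p under 0.05.

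Of 25 PPARA target genes other than the Fabp genes, 12 fell, 0 rose and the median was -0.46. Those with the smallest p were the peroxisome proliferation factor Pex11a at -0.98 ± 0.10 (adjusted p = 0.0012), the mitochondrial carnitine carrier Slc25a20 at -0.46 ± 0.07 and the carnitine acetyltransferase Crat at -1.04 ± 0.16. The PPARA target Fabp1, by contrast, had the value of -0.07 given above, and the difference between it and the list was not tested. Of 12 tested PPARG targets other than Fabp4, 7 fell, 0 rose and the median was -1.83. They included the lipid droplet protein gene Cidea at -8.78 ± 0.74 (adjusted p = 0.00046), the acyltransferase Mogat1 at -3.64 ± 0.28 with 4 wild-type values, and Pparg itself at -0.93 ± 0.10. Fabp4 was at -0.25 on its brightest probe. Of 11 lipases and their regulators, which release fatty acids, the median was -0.35 and 2 fell. These were Pnpla3, above background on 2 knockout arrays and at least 8.74-fold lower (adjusted p = 0.033), and the monoglyceride lipase Mgll at -0.53 ± 0.13 (adjusted p = 0.041). Within slide 2 the medians were -0.50 for PPARA targets, -1.72 for PPARG targets, -0.40 for uptake and activation, -0.18 for lipases and -0.08 for acyl-CoA and sterol carriers.

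**Figure D5:**
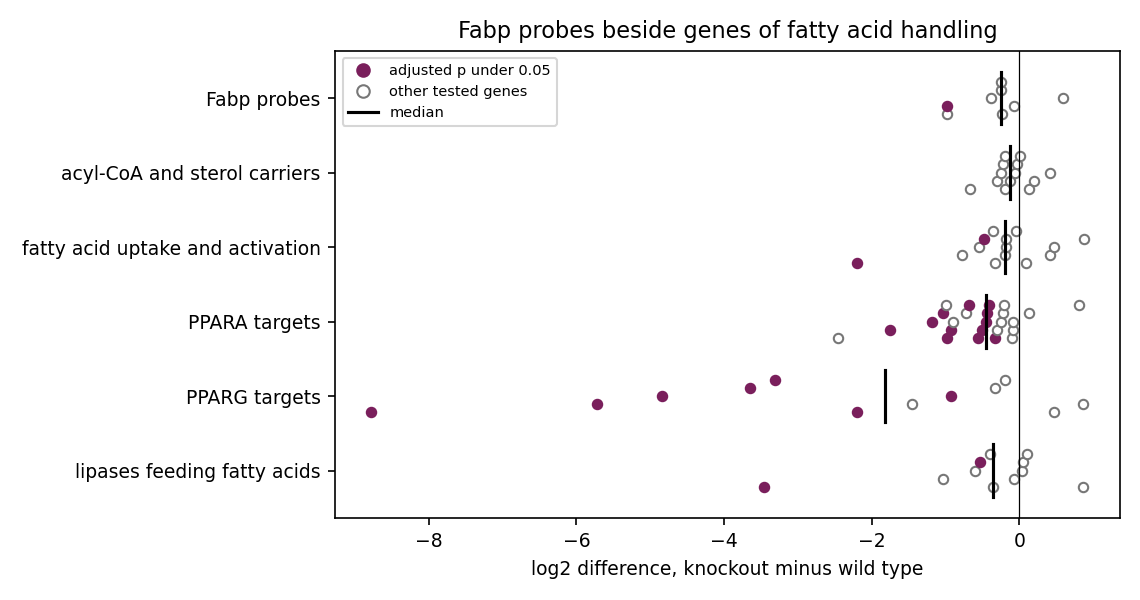
Log2 difference (knockout minus wild type) of the tested Fabp probes and of each tested gene in 5 lists of fatty acid handling, with filled points for an adjusted p under 0.05 and a black line at the median of each row. PPARG targets reach furthest down, to -8.78 for Cidea, while all Fabp probes lie between -0.99 and 0.58.

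Markers of the cell types that carry the Fabp forms were read beside them. The liver label held, with 14 of 14 hepatocyte markers above background and tested, at a median of -0.11. Of these, 12 had a negative and 2 a positive difference, against 7600 and 8209 of all 15809 genes. Without scaling between arrays the hepatocyte median was -0.005. In limma 0 of the hepatocyte markers changed, and 2 had an unadjusted p under 0.05, as did 5339 of all 23266 probes. The hepatocyte marker with the smallest p was the asialoglycoprotein receptor Asgr1, at -0.18 ± 0.06 (adjusted p = 0.116). Their summed signal ran from 1907 to 2046 times the 75th percentile in wild type and from 1524 to 2103 in knockout. Enterocytes, the home of Fabp2, left little signal: 2 of 8 markers were tested, Cdx2, Lct and Cdx1 were never above background, and Apoa4, which hepatocytes also make, differed by -0.91 ± 0.67 (adjusted p = 0.451) and by 1.43 within slide 2. Neither of the 2 had an unadjusted p under 0.05. The sum of all 8 enterocyte markers was 5.06 to 38.1 in wild type and 4.01 to 27.8 in knockout. Apoa4 alone held 94.6% to 99.5% of the signal of the 2 tested markers.

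Beside Fabp4, 6 of 12 adipocyte markers were tested, and Adipoq, Lep, Adrb3 and Trarg1 were never above background. The one that fell was the adipsin gene Cfd, at -5.72 ± 0.76 (adjusted p = 0.0041). Unadjusted limma p was under 0.05 for all 6 tested, 4 with a negative and 2 with a positive difference, against 5339 of 23266 probes. The positive ones were Pck1, which hepatocytes also make, at 0.46 ± 0.13 (adjusted p = 0.063) and the lipase gene Lpl at 0.86 ± 0.30 (adjusted p = 0.131), both named after their values were seen. The sum of all 12 adipocyte markers was 138 to 172 in wild type and 170 to 252 in knockout. Pck1 alone held 72.6% to 95.7% of the signal of the 6 tested markers. Brown adipocyte markers had 5 of 7 tested and 3 that fell. These were Cidea, the muscle and brown fat cytochrome c oxidase subunit Cox8b (adjusted p = 0.014), and Cox7a1 at -0.73 ± 0.14. Cox8b was above background on all 5 WT but 0 KO arrays, with a mean at least 2.91-fold lower. The sum of all 7 was 115 to 237 in wild type and 13.2 to 88.3 in knockout, and Ucp1 was never above background. The 5 tested markers summed to 13.2 on KO2, against 70.4 to 88.2 on the other knockout arrays. Elovl3, named after its values were seen, held 23.3% to 97.4% of the signal of the 5. It did not change, at -0.14 ± 0.52 (adjusted p = 0.898 by limma).

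Macrophage markers, also relevant to Fabp4, had 14 of 16 tested and 1 that rose, the scavenger receptor Cd163, at 0.91 ± 0.22 (adjusted p = 0.045). Of the 14, 7 had a negative difference. Their median was 0.13 over all arrays and 0.58 within slide 2. The sum of all 16 macrophage markers was 46.2 to 104 in wild type and 43.1 to 95.8 in knockout. Of 15 endothelial markers 14 had a positive difference and 1 rose, the lymphatic and sinusoidal receptor gene Flt4, at 0.58 ± 0.12 (adjusted p = 0.027). The endothelial sum was 28.1 to 37.9 in wild type and 40.7 to 65.2 in knockout, with no overlap, and its part in the Fabp values was not tested. Each of Slc27a4, Pnpla3, Mgll, Cox7a1, Cd163 and Flt4 lost its call without at least 4 of the single arrays, with a highest adjusted p between 0.057 for Cox7a1 and 0.112 for Cd163.

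For each member probe above background on all 10 arrays, the genes that deviated from their group means most alike were sought among 13928 genes measured on every array. The values are descriptions over 10 arrays that share their RNA and scaling, and the highest of so many are high by selection. Fabp1 was most like Apoe, the apolipoprotein gene, with a Pearson correlation of 0.979, then Ptprz1 at 0.958 and Pigt at 0.927. Fabp2 on A_51_P313581 was most like Inmt at 0.978, Fgf1 at 0.977 and Tarsl2 at 0.976, values that were 0.931, 0.923 and 0.923 without KO2. On A_52_P453013 it was most like Slco2b1 at 0.984, C730014E05Rik at 0.976 and Rab9 at 0.975. The pair of Fabp2 probes thus shared none of their 3 nearest genes.

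The brightest Fabp4 probe was most like Fmnl3 at 0.963, Septin4 at 0.938 and 2810001G20Rik at 0.926. Its neighbour A_51_P336830 was most like 2810001G20Rik at 0.935, Fmnl3 at 0.931 and Sft2d3 at 0.930, so 2 of the 3 genes were shared. Fabp7 was most like Cep162 at 0.949, Ttc5 at 0.948 and Tmod3 at 0.931.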

How the data were processed

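Labelled RNA of 5 wild-type and 5 knockout liver samples was read on 1-colour arrays. Image quantification by the authors used Agilent's Feature Extraction, release 9.5.1.1 according to headers and 9.5 per the submitters' processing notes. Per the file headers, the program subtracted background and a spatial trend from each deposited intensity, with no step linking one array to another. Intensities in the series table were identical.

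Here the log2 of the processed intensity was taken with no pseudocount, the array's 75th percentile over non-control probes was subtracted, outlier spots were set to missing and replicate spots averaged. Probes flagged above background on 4 or 5 arrays of either genotype were kept (23266, of 15809 genes) and tested in R 4.3.3 with limma 3.58.1 (lmFit, eBayes), genotype being the only term, two-sided, with Benjamini-Hochberg adjustment. The scripts were tested on simulated data. Gene names were updated through a RefSeq table: 22951 probes matched by accession, 6659 by symbol, 3109 by an older symbol, and 8455 kept the file's name. Lists use the brightest probe of a gene, and sums add linear signals. A bound sets the bright group's mean against the lowest signal called above background on each dim array, or the probe's own if higher. It concerns the means of these arrays and is not the end of a confidence interval.

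The members and lists were chosen with earlier results of these data known. The genes named were all member probes, all relatives, up to 3 changed genes of each list with the smallest p or else the 1 with the smallest p, and the 3 genes most alike. Some genes that this rule names are not reported here. The number of arrays limits the precision. Alternatives covered scaling, background, filter, outliers, slide, replicate block, array weights and leaving out each array.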

Additional observations from a re-analysis of the deposited data

Results flagged for a closer look

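Of 64 groups of 5 values checked among the genes that the rule named, 2 held an array far from the other 4 by Dixon's criterion. Chance alone flags about 1 group in 20. The lipase gene Pnpla3 read -1.56 on KO1, against -5.10 to -4.16 on the other knockout arrays. The hepatocyte marker Asgr1 read 6.99 on WT1, against 6.85 to 6.88 on the other wild-type arrays. No Fabp probe was among them.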

How the results depend on the processing

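The number of changed Fabp probes was 1, the same as reported, with quantile normalisation, the filter on all 10 arrays, outliers kept and 1 probe per gene. It was 0 without scaling between arrays, without the filter, with slide as a fixed block, on slide 2 alone and with the replicate block, and 2 with normexp correction, slide as a random block and array weights. Leaving out single arrays gave 0 to 2. The number of changed probes on the array, 1174, became 602 without scaling, 288 without the filter, 46 with slide fixed, 1864 with slide random, 2 on slide 2 alone and 221 with the replicate block, and lay between 352 and 1552 without single arrays. Changed genes over the lists numbered 27, and 16 without scaling, 12 with the replicate block, 2 with slide fixed and 0 on slide 2 alone, with 12 to 31 without single arrays. The cause of these shifts was not tested, except that slide 2 holds 1 wild-type array and that more probes share the adjustment without the filter. Without scaling the median of all probes was 0.12, and calls split into 196 lower and 406 higher, against 694 and 480 as reported. Signs turned for Fabp1 (0.027 with quantile normalisation, 0.031 with normexp, 0.036 without scaling), for Fabp4 A_51_P336830 (0.087 with slide fixed and on slide 2 alone) and for Apoa4 (1.43 under both).

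Replicate numbers are shared by the groups, and the labels do not say whether they pair the samples. Correlations of same-numbered deviations were -0.01, -0.24, -0.14, 0.10 and -0.03, and 0 of 5 exceeded 0.1. These values show no sign of pairing but cannot exclude it, because deviations were taken within groups and no number has both its arrays on one slide. With the replicate block the brighter Fabp2 probe had an adjusted p of 0.109. The dim Fabp3, Fabp5 and Fabp4 A_52_P564544 readings are limited by signal over background. The second Fabp2 probe has no value in the setting with 1 probe per gene.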
